A study of Mus musculus with 5 samples.

Results

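The collagen, laminin and integrin genes of the mouse were followed through the TLX and H3K27ac peak lists of neural stem cell (NSC) and brain tumour stem cell (BTSC) cultures. Members were the protein-coding RefSeq genes of GRCm38.p6 (the mm10 assembly) whose symbols name a collagen chain (Col, a number, a, a number), a laminin chain (Lama, Lamb or Lamc and a number) or an integrin subunit (Itga or Itgb and its suffix). The rule took 81 of 21887 protein-coding genes: 44 collagen, 11 laminin and 26 integrin genes. The rule itself uses gene symbols and no measured value, but it was chosen with earlier results of these data known.

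The series holds 5 samples of 1 library each. In 2 of them TLX with a 3xTY1 tag, carried into mouse NSC or BTSC by a retrovirus and kept by drug selection, was precipitated through its TY1 tag. In another 2, H3K27ac was precipitated from NSC and BTSC that had not been transduced. The remaining sample was a control without antibody from cells with the empty MSCV-neo vector, and no list of it was used here. The TLX lists thus show a tagged protein made from a retrovirus in selected cells, and acetylation was read in other cells than TLX. The labels describe the transduced cells as primary neural stem cells and do not state the tumour from which the BTSC came. With 1 library per group there was no replicate check, so the values below are descriptions of these libraries with no test.

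Collagens are triple helices of chains that build fibres, networks and filaments outside cells. Laminins are trimers of an alpha, a beta and a gamma chain, and together with type IV collagen they form the sheets of basement membranes. Integrins are receptors of an alpha and a beta subunit that tie matrix proteins to the cytoskeleton. In the brain, laminins and integrins are known for holding neural stem cells to vessels and to the surface of the ventricles. TLX, the product of Nr2e1, is an orphan nuclear receptor that neural stem cells need to keep dividing. H3K27ac, acetylation of lysine 27 on histone H3, marks active promoters and enhancers.

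The TLX lists held 7458 peaks in NSC and 1436 in BTSC. The H3K27ac lists held 31266 peaks over 68.5 Mb in NSC and 31597 peaks over 74.1 Mb in BTSC. Chromosome 1 stood apart: it carried 461 of the NSC and 297 of the BTSC TLX peaks, and H3K27ac covered 4.04 Mb of it in NSC and 6.71 Mb in BTSC. On chromosome 6 the covered lengths were 4.72 and 3.73 Mb. Only 2 members lie on chromosome 6 and 10 lie on chromosome 1, so values without these chromosomes are given where they matter. H3K27ac lay at a gene end of 8 of 9 neural stem cell marker genes in either culture, with Msi1 the exception. It lay at the ends of 2 of 7 fibroblast and meningeal markers in NSC and 1 in BTSC, at none of 6 endothelial markers in either, and at 1 of 6 leukocyte markers in both. The summed covered length of the fibroblast list was 7970 bp in NSC and 9710 bp in BTSC, that of the endothelial list 14407 and 8436 bp, and that of the leukocyte list 20154 and 22345 bp. No base pair was covered in either culture at 5 fibroblast markers (Dcn, Lum, Twist1, Foxd1 and Pdgfrb), at the endothelial Tie1 and Kdr, or at the leukocyte Ptprc, Cx3cr1 and Csf1r. Neuronal markers had H3K27ac at an end of 2 of 4 genes in NSC and 1 in BTSC, and muscle and epithelial markers at 0 of 4 each in both. The part of other cells in the values below was not tested.

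TLX peaks in a member, or within 10 kb of it, were found for 21 of the 81 genes in NSC, or 25.9%, where all protein-coding genes had 24.8%. In BTSC 7 members had one, or 8.64%, against 5.12% of all genes, and all 7 also had one in NSC, against 4.59% of all genes with a peak in both lists. Integrins had TLX at 10 of 26 genes in NSC and 5 of 26 in BTSC. Collagens had 8 of 44 and 2 of 44, and laminins 3 of 11 and 0 of 11. Members are long genes, with a median of 77.1 kb against 17.2 kb for all protein-coding genes, and a long gene offers more room for a peak. Among 5213 genes between 34.2 and 139 kb, the middle range of the members' lengths, 35.1% had TLX in NSC and 7.33% in BTSC. In that range 17 of 41 members had TLX in NSC and 6 of 41 in BTSC. When the NSC list was limited to its strongest 1436 peaks, 5 members had a peak, or 6.17%, against 4.86% of all genes.

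The 21 genes carried 33 NSC peaks, of which 25 lay inside the gene away from its ends, 5 within 1 kb of a gene end and 3 in the 10 kb outside. Fold enrichment, the authors' own value per peak, ran from 3.44 to 17.4 with a median of 4.97. The 7 NSC peaks that overlapped a BTSC peak had a median fold of 7.37, and the 26 others had a median of 4.78. Overlap with the BTSC list was 21.2% of the member peaks and 15.8% of the whole NSC list. Of the 33 peaks, 29 overlapped H3K27ac of NSC, which is 87.9% (exact 95% Clopper-Pearson interval 71.8 to 96.6%, counting error only), against 91.6% of the whole list. In BTSC 6 of 7 did, or 85.7% (42.1 to 99.6%), against 93.2%. H3K27ac of both cultures lay under 27 of the NSC peaks.

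**Figure D1:**
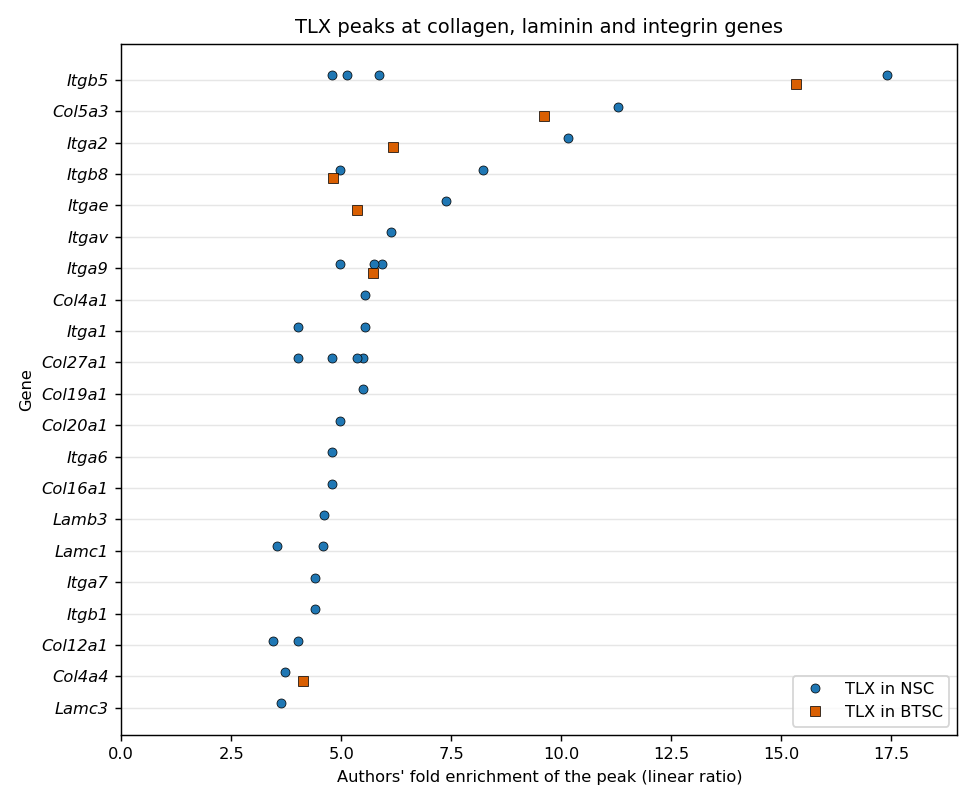
Fold enrichment (authors' value per peak) of each TLX peak assigned to a collagen, laminin or integrin gene, with 1 row per gene and 1 colour per culture. The NSC list has 33 peaks in 21 genes and the BTSC list 7 peaks in 7 genes; Itgb5 has the highest fold in both, 17.4 and 15.3.

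Among beta subunits, Itgb5 and Itgb8 carried TLX in both cultures, and both encode partners of the alpha v subunit. Itgb5, whose product binds vitronectin, held the strongest member peak, at chr16:33941130-33941940 inside the gene, 7863 bp from its right end. Its fold was 17.4 in NSC, rank 23 of 7458, and 15.3 in BTSC, rank 12 of 1436. The other 3 Itgb5 peaks, with folds of 5.12, 4.78 and 5.86, were in the NSC list only. All 4 sites lay in H3K27ac of both cultures, and covered length at Itgb5, the H3K27ac-covered base pairs within 25 kb of either gene end, was 8750 bp in NSC and 8084 bp in BTSC.

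Itgb8 encodes a subunit that releases TGF-beta from its latent form and that neural cells need for normal brain vessels. It had a wide NSC peak of 1944 bp over its start, with a fold of 8.22 and rank 631, which no BTSC peak overlapped. A second site near the far end of the gene was called in both, with folds of 4.98 in NSC and 4.82 in BTSC. Itgb1, the beta subunit shared by most laminin and collagen receptors, had 1 NSC peak, 469 bp from its start, with a fold of 4.40.

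Among alpha subunits, Itga2, part of a collagen receptor, held a peak at chr13:114838435-114839440 with a fold of 10.1 in NSC (rank 281) and 6.18 in BTSC (rank 421). Itga9, whose product binds tenascin C among others, had 3 NSC peaks inside the gene with folds of 5.93, 4.97 and 5.74. The last was called in BTSC too, with a fold of 5.72, and it lay in no H3K27ac peak of either culture. Itgae encodes the alpha E subunit of lymphocytes in epithelia, and the shared peak assigned to it, with folds of 7.37 and 5.36, lay outside the gene and nearer to an end of Ncbp3.

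Itgav, Itga6 and Itga1 had NSC peaks near an annotated start or a gene end. Itgav encodes the alpha v subunit, and its peak, 147 bp from the annotated start, had a fold of 6.12. Itga6, a subunit of laminin receptors that is common on neural stem cells, had a fold of 4.78 at 527 bp from its left end. Itga1, part of a collagen receptor, had 4.02 at 165 bp from its start and a second peak inside the gene with 5.55. The peak assigned to Itga7, a laminin receptor of muscle, lay 9814 bp outside that gene and over Bloc1s1.

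Among collagens, Col5a3, a chain of fibre-forming type V collagen, had the highest fold, at chr9:20794106-20794680 in the body of the gene, 20.7 kb from its start. The fold was 11.3 in NSC (rank 193) and 9.61 in BTSC (rank 72). Col4a4, a chain of the type IV collagen of kidney filters, had the weakest of the shared sites, at chr1:82476298-82476994, with folds of 3.71 (rank 6291) and 4.12 (rank 1165). The other 6 collagens had TLX in the NSC list only. Col27a1, a fibrillar collagen of cartilage, carried 4 peaks with folds of 4.02, 5.49, 4.78 and 5.36, and no BTSC peak. Col12a1 held 2 peaks (4.02 and 3.44), and Col16a1, Col19a1 and Col20a1, which like Col12a1 encode collagens that sit on fibres, and the basement membrane gene Col4a1 held 1 each, between 4.78 and 5.55.

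No laminin gene had TLX in BTSC. In NSC, Lamc1, the gamma chain of most laminins, had a peak at 325 bp from its right end with a fold of 4.59 and a second inside the gene with 3.54. Lamb3, a beta chain of epithelial laminin, had a peak inside the gene with 4.62. The peak near Lamc3, with 3.63, lay outside the gene, over Aif1l.

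The RefSeq promoter table of GRCm38.p6 held 64 promoters of 58 of the 81 members, and a TLX peak of NSC overlapped 4 of them while no BTSC peak overlapped any. The sequences of these 4 are shown because they are the annotated member promoters with TLX; each also lay in H3K27ac of both cultures. Given are the 250 bases before the annotated start, 5′ to 3′ on the gene's strand: Itgav at chr2:83724147-83724396 (plus), Col27a1 at chr4:63215162-63215411 (plus), Itgb8 at chr12:119238277-119238526 (minus) and Itga1 at chr13:115101965-115102214 (minus). Capitals mark any match, on either strand, to AAGTCA (the core that TLX is known to bind), TGANTCA (AP-1), GGGCGG (the GC box), CCAAT or TTGGCA (NFI); TTGGCA and the reverse of CCAAT can share letters.
Itgav: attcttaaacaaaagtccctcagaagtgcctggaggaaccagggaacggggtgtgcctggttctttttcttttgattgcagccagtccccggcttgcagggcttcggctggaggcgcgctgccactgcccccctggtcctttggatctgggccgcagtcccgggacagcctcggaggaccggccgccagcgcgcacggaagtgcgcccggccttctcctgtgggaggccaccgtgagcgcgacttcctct
Col27a1: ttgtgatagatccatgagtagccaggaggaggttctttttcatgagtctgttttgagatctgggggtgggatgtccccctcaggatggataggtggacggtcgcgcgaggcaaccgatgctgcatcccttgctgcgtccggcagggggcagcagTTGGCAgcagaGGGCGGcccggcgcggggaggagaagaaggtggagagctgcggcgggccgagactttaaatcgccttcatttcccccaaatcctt
Itgb8: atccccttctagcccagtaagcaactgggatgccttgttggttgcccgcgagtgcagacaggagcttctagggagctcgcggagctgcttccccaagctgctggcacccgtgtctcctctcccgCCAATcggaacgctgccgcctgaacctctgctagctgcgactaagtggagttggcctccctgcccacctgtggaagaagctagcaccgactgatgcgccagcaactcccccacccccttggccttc
Itga1: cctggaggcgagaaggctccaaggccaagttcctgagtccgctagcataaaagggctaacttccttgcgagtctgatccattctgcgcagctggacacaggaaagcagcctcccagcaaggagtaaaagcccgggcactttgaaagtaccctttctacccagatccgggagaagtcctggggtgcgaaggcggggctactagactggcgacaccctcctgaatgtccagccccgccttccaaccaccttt

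Col27a1 held GGGCGG and TTGGCA, Itgb8 held CCAAT, and Itgav and Itga1 held none of the 5 patterns. AAGTCA was in none of these 4 stretches. Over all 21263 promoters of the table, in windows of 250 bases before to 50 after the start, AAGTCA occurred in 13.2%, and over the 64 member promoters in 10, or 15.6%. A match is a description of letters, and no match says only that these letters are not in the window.

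At gene ends, H3K27ac was less frequent among the members than among all protein-coding genes. A peak lay within 1 kb of an end in 28 members in NSC, or 34.6%, against 52.2% of all genes, and in 26 members in BTSC, or 32.1%, against 51.7%. Both cultures had one in 22 members, or 27.2%, against 49.6%. Laminins had 5 of 11 in both, integrins 9 of 26 and collagens 8 of 44. Taken by culture, laminins had 7 of 11 (63.6%) in NSC, above the 52.2% of all genes, and 5 of 11 (45.5%) in BTSC. Integrins had 10 of 26 (38.5%) and collagens 11 of 44 (25%) in each culture. Over genes in the members' middle range of lengths the share was 63.9% in NSC, with 14 of 41 members, and 63.3% in BTSC, with 13 of 41.

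By role, the fibrillar collagens had H3K27ac at an end of 5 of 11 genes in NSC and 3 of 11 in BTSC. Collagens that sit on fibres had it in 4 and 3 of 9. The network-forming collagens, type IV among them, had it in 1 of 9 in NSC and 4 of 9 in BTSC, and collagens of beaded filaments and anchoring fibrils in 0 of 9 in both. Of the leukocyte integrins 0 of 7 had it in either culture. The laminin-binding alpha subunits had it in 2 of 3, Itga6 and Itga7, and beta subunits in 3 of 6, Itgb1, Itgb5 and Itgb8, in both cultures.

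**Figure D2:**
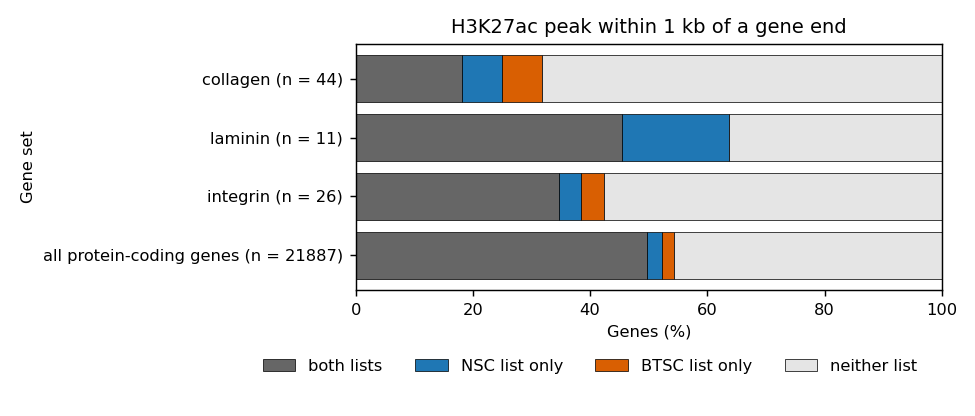
Share of genes (%) with an H3K27ac peak within 1 kb of a gene end in both lists, in 1 list only or in neither, for collagen, laminin, integrin and all protein-coding genes. The share in both lists is 18.2% for collagens, 45.5% for laminins and 34.6% for integrins, against 49.6% for all genes.

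In 15 members, or 18.5% against 31.6% of all genes, no peak of any list lay in the gene or the 10 kb around it. Within the members' middle range of lengths the order was turned, with 8 of 41 members against 15.9% of genes. The 15 members were the fibrillar Col1a2 and Col3a1, the type VI chains Col6a1, Col6a2, Col6a3, Col6a5 and Col6a6, the network chains Col8a1 and Col10a1, the transmembrane Col13a1 and Col17a1, and the leukocyte integrins Itgad, Itgam, Itgax and Itgb2. Itgam, Itgax and Itgad are neighbours on chromosome 7, with gaps of 11034 and 23275 bp. Col3a1 lies 24624 bp from Col5a2, which had an NSC peak at its right end, the end away from Col3a1.

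H3K27ac at an end was called in the NSC list only for 6 members, or 7.41% against 2.62% of all genes. At annotated starts alone it was 2 of 58 members, or 3.45% against 2.21%. The 6 members were the fibrillar Col5a2 and Col24a1, the fibre-associated Col19a1, the laminin chains Lama1 and Lamb1, and Itga11, a collagen receptor subunit. These peaks were narrow, from 797 bp at Col5a2 to 1854 bp at Col24a1, and their folds ran from 2.63 at Col5a2 to 3.79 at Col19a1. At Col24a1 and Itga11 the peak lay at the end away from the annotated start. Inside Itga11, BTSC had a peak of 2073 bp with a fold of 7.07 that no NSC peak overlapped. Lamb1, a beta chain of the main laminins of basement membranes, had its NSC peak of 970 bp over the start with a fold of 3.56, while both lists had a peak further inside, 1424 bp wide in NSC and 1181 bp in BTSC. Col5a2 and Col19a1 lie on chromosome 1.

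The BTSC list alone had a peak at an end of 4 members, or 4.94% against 2.09% of all genes, and these rested on 3 peaks. The count was 2 under each of 3 alternatives: 2.47% against 2.28% of all genes with a window of 2.5 kb, 2.47% against 2.05% at a −log10 q of at least 5, and 2.90% against 2.01% without chromosomes 1 and 6. Col4a3 and Col4a4, type IV chains whose annotated spans overlap by 114 bp, shared 1 peak of 429 bp with a fold of 2.53 on chromosome 1. Col4a5 and Col4a6 are neighbours on chromosome X with a gap of 1274 bp. The peak between them was 847 bp wide in NSC, where it reached Col4a5 only, and 2360 bp wide in BTSC, where it reached both, with folds of 6.67 and 6.55. The third peak was at Itga2, 586 bp from its left end, which is the end away from its annotated start. The remaining pair of type IV genes, Col4a1 and Col4a2, overlaps by 85 bp and had no peak at an end in either list.

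The 250 bases before the start of Col4a6, at chrX:141474077-141474326 on the minus strand, are shown because H3K27ac overlapped this promoter in BTSC and not in NSC. The promoter of Col23a1 had the same pattern but is not shown, since that gene had H3K27ac at an end in both lists. Capitals mark the single match, to GGGCGG on the other strand.
Col4a6: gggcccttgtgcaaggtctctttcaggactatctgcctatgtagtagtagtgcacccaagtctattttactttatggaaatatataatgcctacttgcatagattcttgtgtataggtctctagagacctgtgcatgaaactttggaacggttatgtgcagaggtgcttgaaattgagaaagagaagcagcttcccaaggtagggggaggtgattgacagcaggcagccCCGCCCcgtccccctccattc

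Over annotated starts instead of gene ends, H3K27ac overlapped 15 of the 64 member promoters in both cultures, 3 in NSC only and 2 in BTSC only. Col27a1 had no peak within 1 kb of an end of its span, but its annotated start lies further inside and was acetylated in both lists. Col20a1 had a peak over its annotated start in NSC only.

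Covered length around the ends was similar in the middle: the members' median was 2532 bp (NSC) and 2360 bp (BTSC), where all protein-coding genes had 2441 and 2569 bp. It was higher in NSC in 30 members, higher in BTSC in 32 and equal in 19, where all 21887 genes split into 6652, 9404 and 5831. A difference of at least 1.5 fold and 1 kb was counted as more. By that rule 10 members, or 12.3%, had more in NSC against 7.22% of all genes, and 9 members, or 11.1%, had more in BTSC against 13.1%. Collagens had 6 more in NSC and 3 more in BTSC, laminins 1 and 3, and integrins 3 and 3. Without chromosomes 1 and 6, 10 members had more in NSC, or 14.5% against 6.83% of all genes. In BTSC 6 had more, or 8.7% against 12.2%.

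**Figure D3:**
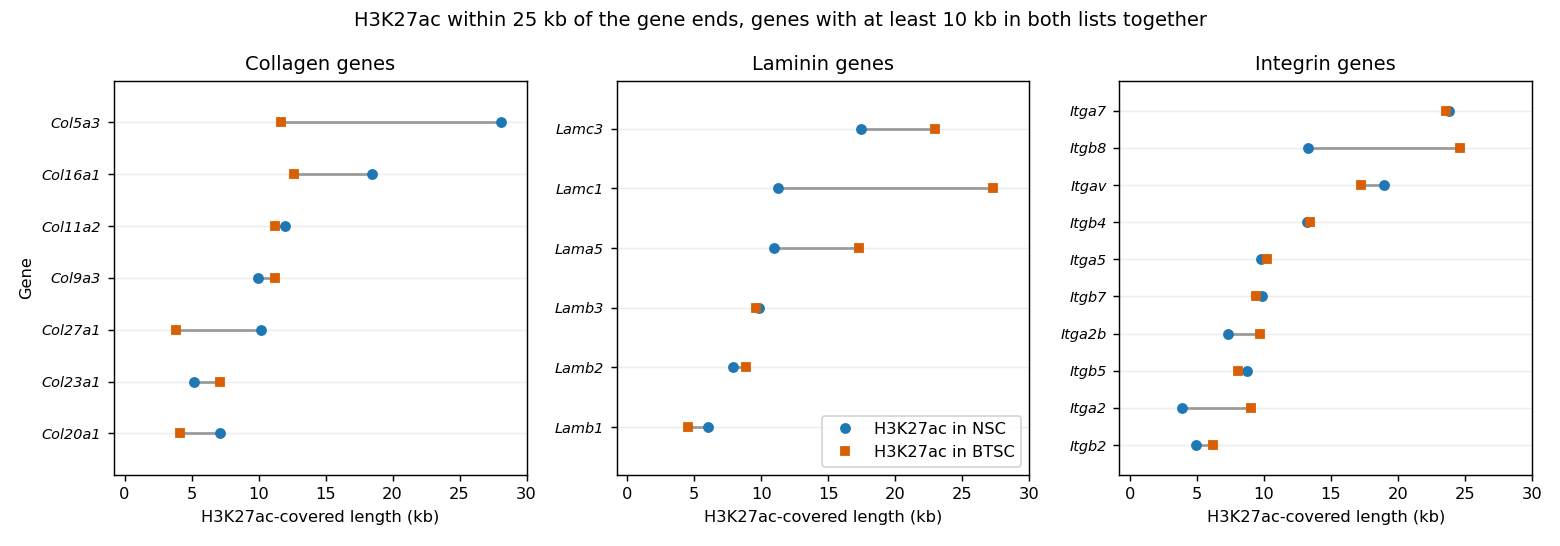
H3K27ac-covered length in kb within 25 kb of either gene end for the genes with at least 10 kb in both lists together, 1 row per gene and 1 panel per family, with circles for NSC and squares for BTSC. Col5a3 is longer in NSC, 28073 against 11694 bp, and Lamc1 and Itgb8 are longer in BTSC.

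Col5a3 had the largest difference towards NSC of all members, 28073 bp in NSC and 11694 bp in BTSC, and ranked 7 among all genes in that direction. The difference, BTSC minus NSC, was −16379 bp, and it was −9591 bp at a −log10 q of at least 5 and −6921 bp within 10 kb of the ends. The domain around its shared TLX site was 10237 bp wide in NSC and 5859 bp in BTSC. Within the gene body, H3K27ac covered 36.0% in NSC and 14.0% in BTSC. No H3K27ac peak of either list lay within 1 kb of its ends, so the difference was in the body and beyond the ends. Just past that limit, NSC peaks with no BTSC peak on them lay 1009 bp from the right end and 1213 bp from the left end. Their folds were 2.42 and 2.25.

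Other collagens towards NSC were Col27a1, with 10203 bp in NSC and 3878 bp in BTSC, and Col16a1, with 18435 and 12641 bp. For Col16a1 the ratio was 1.46, short of the rule. Col20a1 had 7114 and 4165 bp, and Col24a1 3088 and 1014 bp. Within 10 kb of the ends the differences were −1817 bp at Col27a1, −3198 bp at Col16a1 and −1014 bp at Col20a1. Each of Col27a1, Col16a1 and Col20a1 had TLX in the NSC list only, while Col24a1 had none. Col26a1 and Col12a1 completed the 6 collagens with more in NSC. The fibrillar group as a whole summed to 66648 bp in NSC and 39810 bp in BTSC, of which Col5a3 gave the most. Col11a2, a cartilage fibril chain, had 11996 and 11262 bp, nearly all outside the gene.

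Towards BTSC the collagens had smaller values. Col9a1, a fibre-associated chain on chromosome 1 whose end is 4944 bp from that of Col19a1, had 2504 bp in NSC and 4760 bp in BTSC. H3K27ac covered 4.04 Mb of that chromosome in NSC and 6.71 Mb in BTSC, and no value of Col9a1 scaled to the chromosome is given here. Col4a5 and Col4a6 each had 847 and 2360 bp from the peak that they share. In the network-forming group 7 of 9 genes had more base pairs in BTSC and 1 in NSC, before any limit on the size of the difference. Over all 21887 genes these counts were 9404 and 6652. The 7 are not independent, since Col4a5 and Col4a6 count the same peak. Col4a3 and Col4a4 both count the 429 bp BTSC peak on chromosome 1.

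Among laminins, the gamma chain genes Lamc1 and Lamc3 had the longer covered length in BTSC. Lamc1 had 11278 bp in NSC and 27314 bp in BTSC, rank 53 of all genes in that direction. In its body H3K27ac covered 10.4% in NSC and 29.1% in BTSC. It lies on chromosome 1, where the BTSC list covered more in general. With covered lengths scaled to each list's total on the chromosome, the Lamc1 difference of 16036 bp became 5184 bp and no longer met the rule; within 10 kb of the ends it was 8538 bp. Lamc3 had 17405 and 22961 bp, all of it outside the gene, and its ratio of 1.32 was short of the rule.

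Of the alpha chains, Lama5, found in many basement membranes, had 10944 bp in NSC and 17264 bp in BTSC. At its right end 2 NSC peaks of 6231 and 1127 bp corresponded to 1 BTSC peak of 12609 bp. The scaled difference, 5386 bp in place of 6320 bp, did not meet the rule. Lama1, the alpha chain of early embryonic basement membranes, had 1160 bp in NSC and no covered base pair in BTSC. The beta chains Lamb2 and Lamb3 were near equal in both lists, Lamb2 with 7880 and 8879 bp and Lamb3 with 9839 and 9633 bp.

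Among integrins, Itgb8 had 13261 bp in NSC and 24609 bp in BTSC, rank 164 towards BTSC. Its difference of 11348 bp was 5770 bp at a −log10 q of at least 5 and 4788 bp within 10 kb of the ends, where that of Itga2 was 5932 and 5782 bp; over the body and 10 kb around it, Itgb8 differed by 19698 bp. The domain over its start, where TLX was called in NSC, was 6196 bp wide in NSC and 10825 bp in BTSC. Its body was covered to 20.2% in NSC and 46.4% in BTSC. Itga2 had 3870 and 9060 bp, and the peak holding its shared TLX site was 1762 bp wide in NSC and 7316 bp in BTSC.

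Towards NSC, Itga4, a receptor subunit for fibronectin and VCAM, had 4932 bp in NSC and 995 bp in BTSC, and its promoter peak was 4346 and 995 bp wide. Itga6 had 4678 and 2479 bp, while its left-end peaks were 1858 and 1688 bp wide and the windows outside the gene held 2248 and 791 bp. Within 10 kb of the ends the Itga6 difference, BTSC minus NSC, was −170 bp in place of −2199 bp, and −1134 bp at the stricter q. Itgb3 was the third integrin with more in NSC, 1019 bp against none.

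Itga7 and Itgav were high in both cultures and near each other in value. Itga7 had 23773 bp in NSC and 23576 bp in BTSC, of which 15798 and 17770 bp lay outside the gene. Itgav had 18984 and 17241 bp, and its start domain was 7655 bp wide in NSC against 9360 bp in BTSC. The ratios of Itgb1, Itgb5, Itga1 and Itga5 between the lists were all under 1.1.

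**Figure D4:**
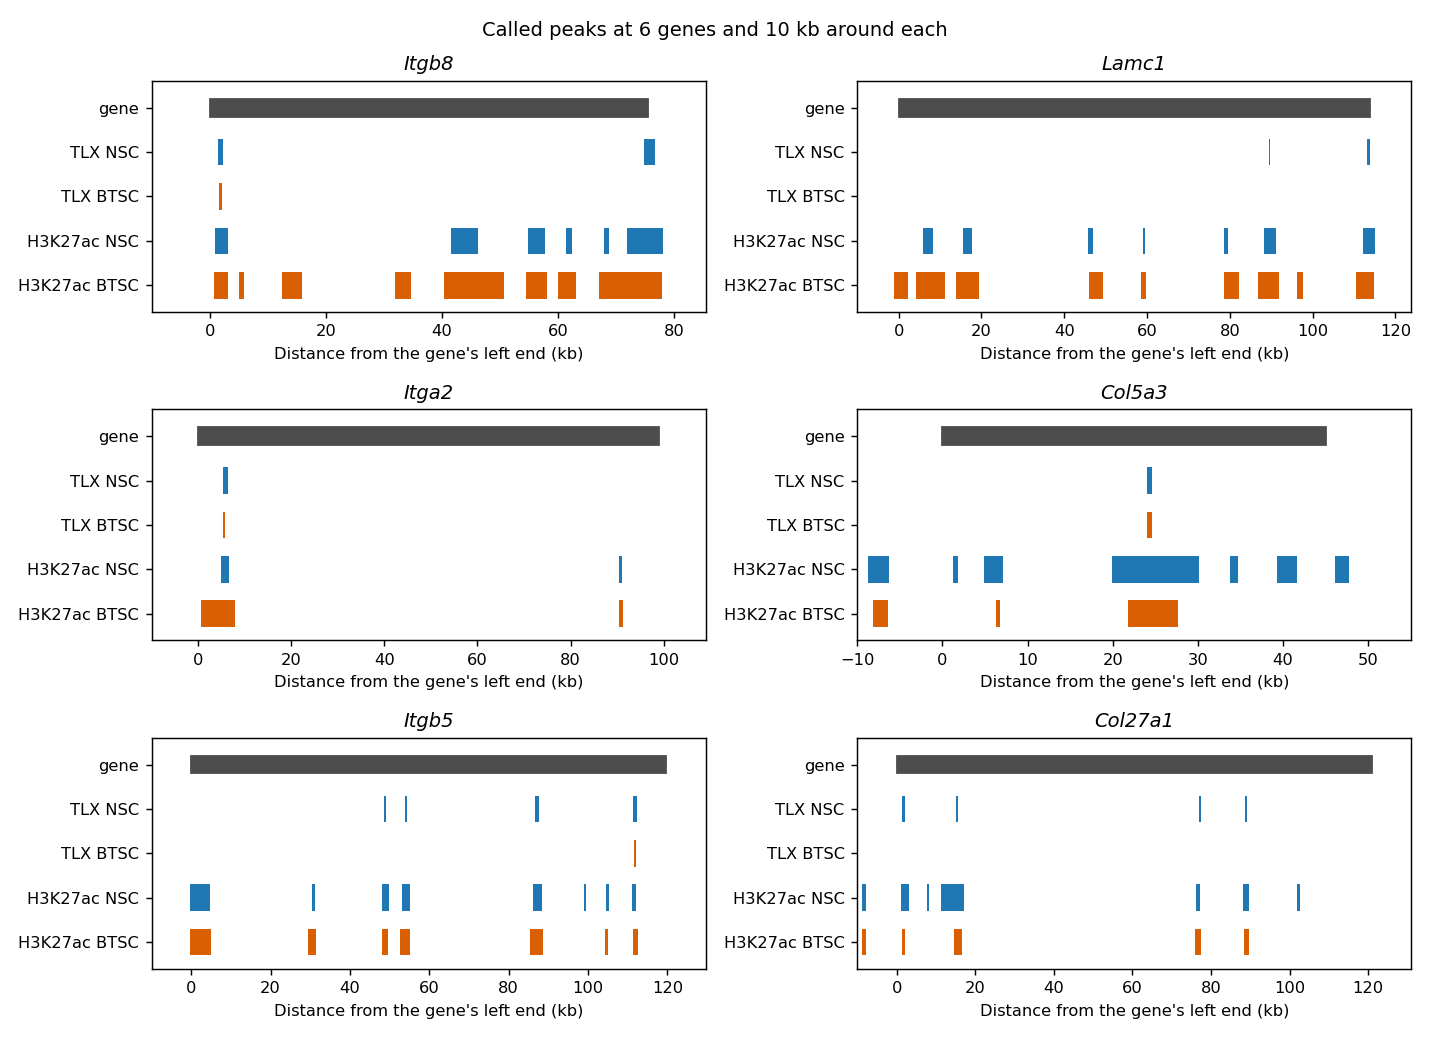
Called peaks of the 4 lists along Itgb8, Lamc1, Itga2, Col5a3, Itgb5 and Col27a1, with distance from the gene's left end in kb and 10 kb shown on either side. H3K27ac domains are wider in BTSC at Itgb8, Lamc1 and Itga2 and wider in NSC at Col5a3, and the TLX peak of Col5a3 lies inside that domain in both cultures.

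Over all H3K27ac peaks in the members and 10 kb around them, 74.0% of the NSC peaks (111 of 150) had a BTSC peak on them, and 79.3% of the BTSC peaks (107 of 135) had an NSC peak. No share over the whole H3K27ac lists is set beside these values, so they do not show whether the members differ from other genes. The median widths of shared peaks were 1915 bp (NSC) and 1955 bp (BTSC). Peaks in 1 list only were narrower, with medians of 825 and 811.5 bp.

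A list of 52 other matrix and adhesion genes was set beside the members. TLX was at 33 of the 52 in NSC and 6 of the 52 in BTSC, where all protein-coding genes had 24.8% and 5.12%. The lengths of the listed genes were not compared with those of all genes, so no share over genes of like length is given. H3K27ac lay at an end of 39 and 37, where all genes had 52.2% and 51.7%. More covered length was counted in NSC for 8 and in BTSC for 6, where all genes had 7.22% and 13.1%. Of 13 genes whose products make or modify collagen, 9 had TLX in NSC and 2 in BTSC; 4 had more covered length in NSC and 1, Plod1, in BTSC.

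Serpinh1, the chaperone of collagen in the endoplasmic reticulum, had 13024 bp in NSC and 3926 bp in BTSC. P4ha2, a prolyl hydroxylase of collagen, had 8090 and 1914 bp. Plod2, a lysyl hydroxylase, had 6395 and 3452 bp, and Loxl1, an oxidase of the family that cross-links fibres, 3687 and 467 bp. Serpinh1 and Plod2 had H3K27ac at an end in the NSC list only. In the other direction, Nid2, which links laminin with type IV collagen, had 4893 and 12616 bp, and the matrix gene Thbs2 had 9355 and 22945 bp. Vcl, an adaptor between integrin sites and actin, had 4127 and 12450 bp, whereas Src had 37593 and 36865 bp.

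**Figure D5:**
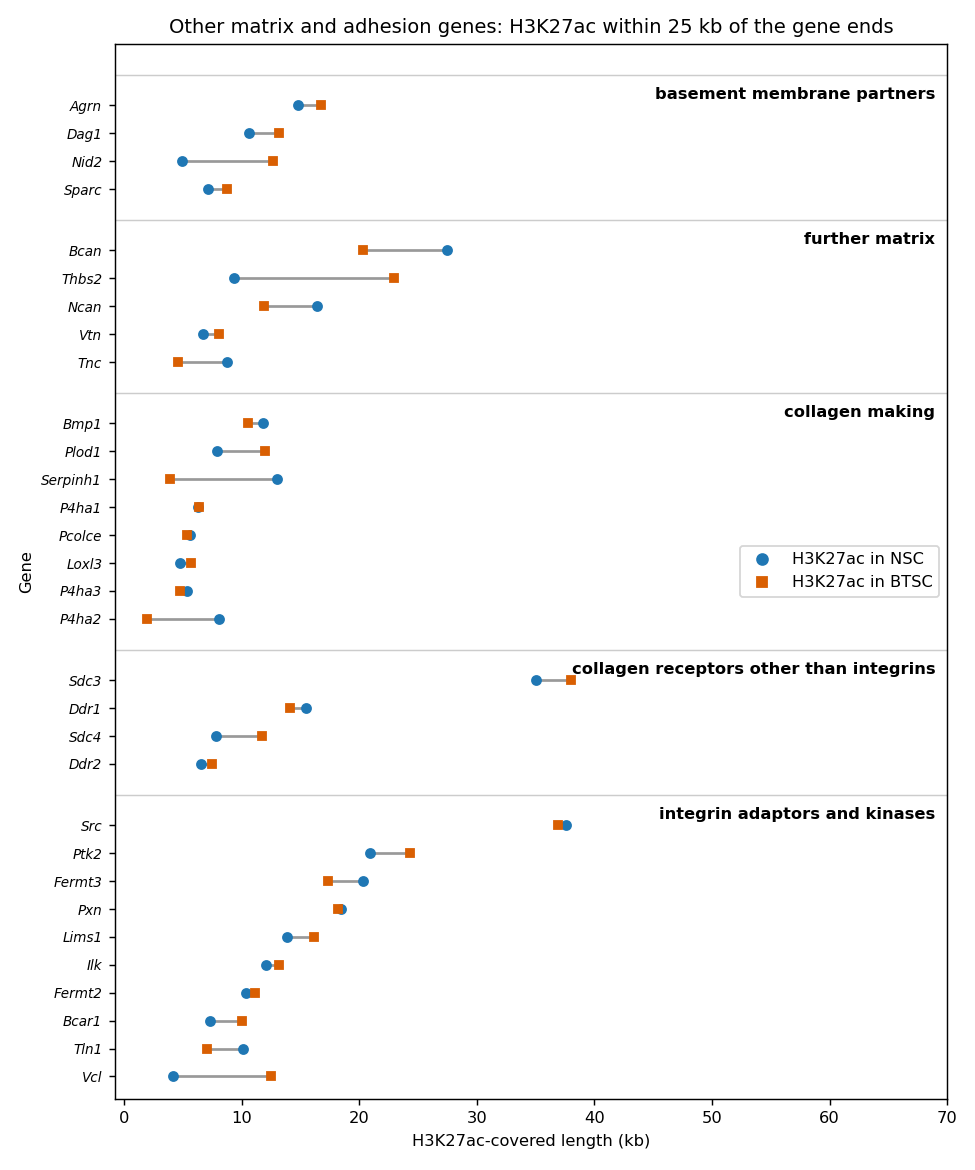
H3K27ac-covered kb within 25 kb of either gene end in NSC and BTSC, in 5 groups. Of the 52 other matrix and adhesion genes, only those with at least 10 kb in both lists together are drawn. Serpinh1 and P4ha2 are higher in NSC and Thbs2, Nid2 and Vcl in BTSC; Src and Sdc3 are high in both.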

How the data were processed

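TLX and H3K27ac were profiled by chromatin immunoprecipitation and sequencing in 1 library per group. The tools were Bowtie, ChIPseeker and bcl2fastq 2.17.1.14 on build mm10, per the submitters' processing notes, and which caller made the peaks is not given in the sources used here. Peak lists were deposited per library, narrow for TLX and broad for H3K27ac. Beside its coordinates a deposited peak carries the authors' score, −log10 q-value, −log10 p-value and fold (a linear ratio), used to rank or filter peaks within a list; where a site has a fold in either culture, each is given as a description. Read depth is unknown, so a missing peak means none was called. The control was not analysed here.

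With Python 3.11.15, pandas 2.3.3 and numpy 2.4.6, peaks were joined to RefSeq genes by at least 1 bp of overlap. TLX was assigned within 10 kb of a gene, H3K27ac within 1 kb of either end, and covered base pairs within 25 kb of either end. The gene table gives no exons, so exon, intron and untranslated parts are not told apart. A promoter table gave strand and start for 58 members. The overlap code was tested on simulated intervals.

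Members and lists were chosen with earlier results of these data known. The rule for named genes takes members with TLX in both lists or with an H3K27ac class that differs, the 8 TLX peaks of highest q per list, the 6 largest differences per direction, the 3 most covered genes per family, neighbours within 25 kb, and members without peaks; a gene that the rule names is not reported here, while counts cover all members; Col24a1, Col26a1, Col12a1, Col9a1, Lama1, Itgb3 and the other TLX members and list genes given values were added after their values were seen. Alternatives were a stricter q, equal numbers of peaks, other windows, annotated starts, scaling per chromosome and leaving out chromosomes 1 and 6. Counts over genes of the members' middle lengths were chosen after seeing the data.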

Additional observations from a re-analysis of the deposited data

How the results depend on the processing

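Counts held within 1.5 times their reported value in 44 comparisons with an alternative and moved further in 9. With a 50 kb flank in place of 10 kb, TLX was at 40 members in NSC (21 reported), or 49.4% against 42.1% of all genes. In BTSC it was at 11 (7 reported), or 13.6% against 10.2%. In both lists it was at 11, or 13.6% against 9.4%. With equal numbers of peaks it was at 5 in NSC, or 6.17% against 4.86%. Among the 41 members of middle length it was at 17 in NSC, or 41.5% against 35.1% of genes in that length range. In BTSC 6 of the 41 had it, or 14.6% against 7.33%. Members with H3K27ac at an end in BTSC only numbered 2 in place of 4 with a 2.5 kb window, or 2.47% against 2.28% of all genes. They numbered 2 at a −log10 q of at least 5 (2.47% against 2.05%) and 2 without chromosomes 1 and 6 (2.9% against 2.01%). Members with H3K27ac in NSC only numbered 2 in place of 6 at annotated starts, or 3.45% against 2.21%. With covered length scaled per chromosome, 5 in place of 9 members had more in BTSC, or 6.17% against 10.2% of all genes. Of single genes, 50 comparisons held and 10 moved, none with a change of sign. These include Lamc3 (2355 bp in place of 5556) with windows of 10 kb, and Col16a1 (BTSC minus NSC −6866 bp in place of −5794), which met the rule of 1.5 fold once scaled. The cause was not tested. No paired analysis was possible because each group has 1 library. Unknown depth limits every missing peak, above all in the shorter TLX list of BTSC.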

Other observations

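Gene bodies away from the ends held values that the windows around the ends miss. Lama4, an alpha chain of vessel basement membranes, had 10345 bp of H3K27ac in its body in NSC and 5170 bp in BTSC, while 25 kb around its ends held 2752 and 2106 bp. Col12a1 had 6436 bp in its body in NSC and none in BTSC. Itgb5 had 13901 and 16041 bp, close to each other although 3 of its 4 TLX peaks were in the NSC list only.

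In the promoter windows, GGGCGG occurred in 35 of 64 member promoters, or 54.7%, against 46.2% of all promoters in the table. CCAAT occurred in 17, or 26.6%, against 38.2%, TTGGCA in 10, or 15.6%, against 13.1%, and TGANTCA in 4, or 6.25%, against 6.99%.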
